A study of Mus musculus with 8 samples.

Results

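The 10 genes described here are the 4 mouse Notch receptors (Notch1, Notch2, Notch3 and Notch4), the Delta-like and Jagged ligands Dll1, Dll3, Dll4, Jag1 and Jag2, and the target gene Hey1, chosen by name. DNA methylation was followed at 200 bp tiles of the genome that overlap the annotated span of a gene or the 2 kb on either side. They are 10 of 49943 RefSeq genes of build GRCm38.p6, of which 21887 are protein coding, and 9 of the 10 carried at least 1 listed tile in some table, as did 44.9% of protein-coding genes and 31.3% of all RefSeq genes. Together they held 59 listings at 43 distinct tiles, of 75041 listings at 53375 tiles in the whole genome.

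The tiles come from bisulfite sequencing of CpG-rich fragments (RRBS), in which only unmethylated cytosines are converted, in organoids grown from proximal colon crypts of male mice about 40 days old. All 8 libraries come from organoids with a heterozygous Cre-activable BrafV600E allele, in 4 groups with organoid lines 1 and 3 in each. The first comparison sets organoids in which lentiviral Cre had switched on BrafV600E, a constitutively active kinase, grown for 5 months and then in Base medium, against organoids of the same line that received the empty lentiviral vector and stayed in full medium for 5 months. Base medium lacks the stem-cell niche factors, and full medium holds Wnt3a, R-Spondin, Noggin and EGF, so the oncogene, the medium and the selection cannot be told apart. The second comparison sets empty-vector organoids in full medium after 12 months (line 1) or 14 months (line 3) against empty-vector organoids of the same line after 2 months, all with the oncogene allele silent. Every library had 3 further weeks in its final medium. The 2 comparisons share no library, but they share the lines. The line 3 library titled 14 months carries 2 months in another label field, and the line 1 BrafV600E library names line 3 in its source field. Titles were followed. No RNA was measured here, so the colon identity of the organoids could not be checked against marker genes.

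Notch is a receptor read out by cutting. A Delta-like or Jagged ligand on one cell pulls on a Notch receptor on its neighbour, ADAM proteases and γ-secretase release the intracellular domain, and this joins RBPJ and Mastermind proteins to switch on Hes and Hey repressors. In intestinal crypts Notch signalling, mostly through Notch1 and Notch2, keeps progenitors dividing and favours absorptive fate by repressing Atoh1, while Dll1 and Dll4 are shown by secretory cells. Notch3 is best known from vascular smooth muscle and Notch4 from endothelium.

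The authors' deposited tables list a tile if 1 library differed from 1 control library by 20 percentage points or more, with q no higher than 0.01. A listed tile with a positive difference is called gained here and one with a negative difference lost. The q-values speak of those libraries, not of the conditions, and lines 1 and 3 are the only replicates. No read counts were used here, so the depth behind a tile is unknown and no interval can be given. Where a tile is not listed, it may have been alike in both libraries or not read.

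Of the 43 tiles, 5 overlapped an annotated promoter of a member, at Notch1, Notch2, Notch3, Dll1 and Jag2. The 4 sequences printed here show the upstream bases of those tiles at Notch1, Notch2, Notch3 and Dll1, where differences at gene starts are described. They hold 178, 137, 104 and 182 of the 200 bases of each tile, and which of the CpG sites were read is not known here. Each is the stretch just upstream of the annotated gene, 5′ to 3′ on the strand of the gene, from RefSeq's GRCm38.p6 promoters. Capitals mark the CG sites that lie inside the listed tile. The window of Jag2 lies within the annotated span of that gene and is not printed.
Notch1: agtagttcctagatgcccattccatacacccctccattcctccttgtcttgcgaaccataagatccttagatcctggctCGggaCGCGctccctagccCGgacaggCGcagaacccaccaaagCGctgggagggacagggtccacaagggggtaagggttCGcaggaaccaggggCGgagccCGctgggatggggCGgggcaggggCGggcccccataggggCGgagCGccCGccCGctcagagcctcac
Notch2: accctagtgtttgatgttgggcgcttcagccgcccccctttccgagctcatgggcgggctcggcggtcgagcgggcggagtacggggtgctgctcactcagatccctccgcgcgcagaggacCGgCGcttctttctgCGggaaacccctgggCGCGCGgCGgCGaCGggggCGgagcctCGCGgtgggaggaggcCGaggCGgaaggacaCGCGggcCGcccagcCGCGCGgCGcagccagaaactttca
Notch3: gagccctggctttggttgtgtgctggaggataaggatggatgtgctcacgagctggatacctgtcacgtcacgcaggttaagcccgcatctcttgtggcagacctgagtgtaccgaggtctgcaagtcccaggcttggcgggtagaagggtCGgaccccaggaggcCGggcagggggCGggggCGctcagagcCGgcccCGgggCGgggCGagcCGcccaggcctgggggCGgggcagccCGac
Dll1: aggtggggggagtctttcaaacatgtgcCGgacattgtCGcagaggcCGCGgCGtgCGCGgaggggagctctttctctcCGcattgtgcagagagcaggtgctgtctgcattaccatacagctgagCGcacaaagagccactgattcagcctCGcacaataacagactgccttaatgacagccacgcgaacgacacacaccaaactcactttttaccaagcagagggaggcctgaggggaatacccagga

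The Notch1 stretch is chr2:26503823-26504072 on the minus strand, and bases 73 to 250 of it lie in the tile, with 15 CG sites. The Notch2 stretch is chr3:98013288-98013537 on the plus strand, with 21 CG sites in bases 114 to 250. The Notch3 stretch, chr17:32166897-32167140 on the minus strand, has 11 CG sites in bases 141 to 244. The Dll1 stretch, chr17:15376933-15377182 on the minus strand, has 10 CG sites in bases 1 to 182. Promoters of the family ranged widely in CG. Over the full 300-base promoters, the letters CG occurred 23 times at Notch1, 41 times at Notch2, 25 times at Notch3, 63 times at Jag2 and 5 times at Notch4, against a median of 7 in 32851 mouse promoters of that length. The letters CCGG, cut by the enzyme most often used for such libraries though none is named in the labels, were present in each of the 10 promoter entries of the 9 members that have any, and in 52.8% of all promoters. The letters TGGGAA, the core of the RBPJ motif, were found on either strand in 0 of those 10 entries and in 25.6% of all promoters.

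With BrafV600E in Base medium, Notch1 and Dll1 gained methylation in both lines with no tile lost, and Notch3 lost methylation around its start in both lines. In line 1, 6 of the 10 genes had at least 1 gained tile (17.8% of protein-coding genes did) and 1 had a lost tile (10.5%). In line 3, 5 had a gained tile (background 20.9%) and 4 a lost tile (20.4%). Gains in both lines were found at Notch1, Dll1 and Dll3, 3 of 10 genes, where 11.3% of protein-coding genes and 6.52% of all RefSeq genes had them. The gain of Dll3 in line 3 rests on a tile past its 3′ end, near the gene Selenov. A loss in both lines was found at Notch3 alone among the 10, against 6.07% of protein-coding genes and 3.56% of all genes.

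With long culture, Dll1 again gained in both lines, Jag2 lost in both, and the start of Notch3 gained where it had lost with BrafV600E. In line 1, 3 members had a gained tile (background 8.55%) and 3 a lost tile (10.9%). In line 3, 6 had a gained tile (20.3%) and 6 a lost tile (12.2%). Gains in both lines were found at Dll1 and Notch3, 2 of 10 genes, against 6.5% of protein-coding genes and 3.7% of all genes. Losses in both lines were found at Notch2, Dll3 and Jag2, 3 of 10, against 4.07% and 2.25%, and each of these but Jag2 also had a gained tile in line 3. The loss of Dll3 in line 1 rests on the same tile near Selenov.

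**Figure D1:**
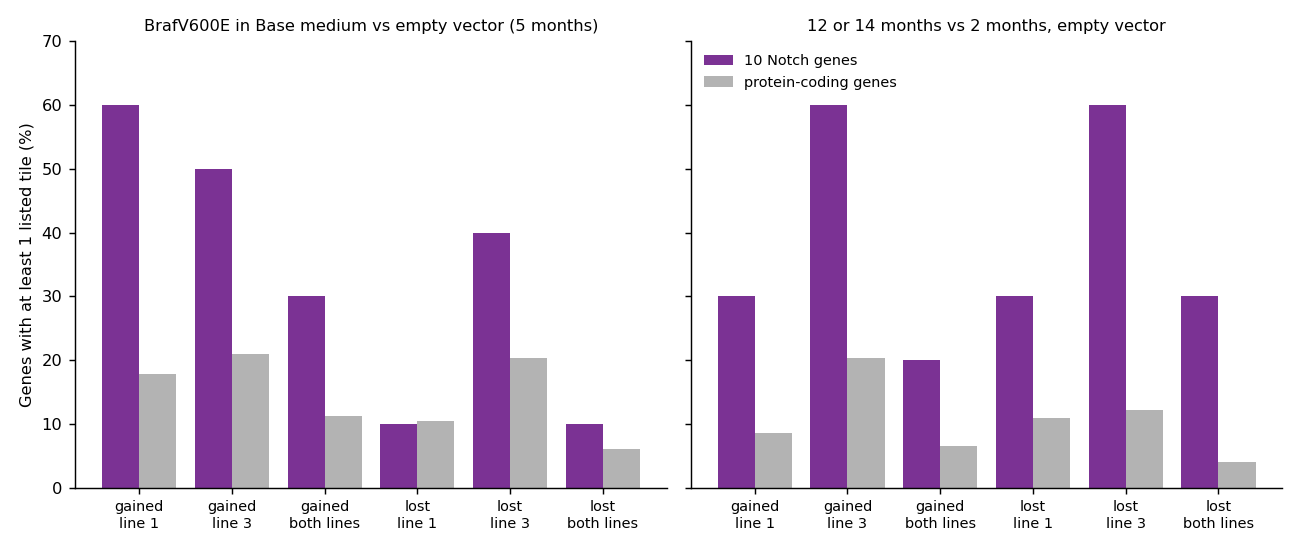
Percentage of genes with at least 1 gained or lost tile (y axis) in line 1, line 3 or each of the 2 lines (x axis), for the 10 Notch genes (purple) and 21887 protein-coding genes (grey), in the BrafV600E comparison (left) and the long-culture comparison (right). The bars of the 10 genes stand above the grey bars everywhere except at losses in line 1 with BrafV600E, where 1 of 10 genes meets a background of 10.5%.

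These shares were not tested, since the genes were picked with results known. The 10 genes are also longer by median span, 23.1 kb against 17.2 kb for protein-coding genes, but not by mean window. Their windows sum to 382 kb, and those of the 21887 protein-coding genes to 1.14e+06 kb. In line 1 with BrafV600E, windows of the 10 genes held 3.67 gained tiles per 100 kb. Those of all protein-coding genes held 0.742, a figure to which long genes contribute most. For losses in line 3 with BrafV600E the figures were 1.83 and 0.908, and for gains in line 3 with long culture 2.36 and 1.15. The whole tables also leaned differently by line: 67.5% of all listed tiles were gained in line 1 and 40.4% in line 3 with BrafV600E, and 40.9% and 71.9% with long culture. The part played by gene length and CpG content in these shares was not tested.

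**Figure D2:**
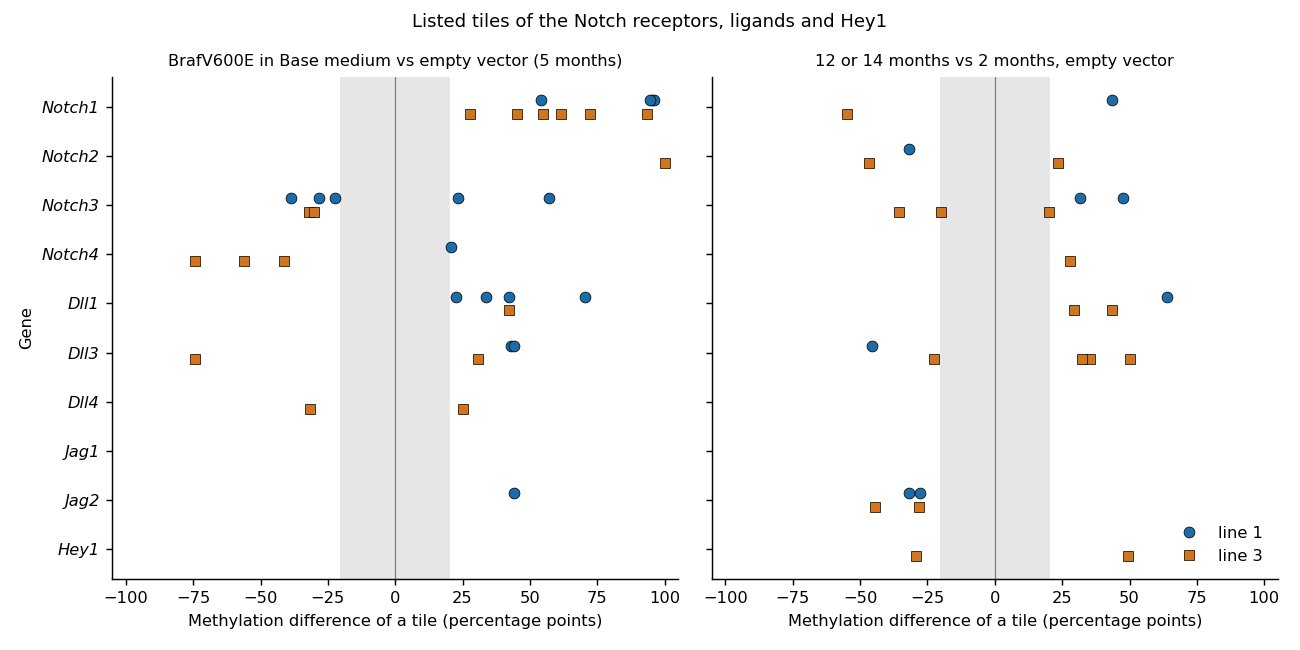
Methylation difference in percentage points (x axis) of each listed tile of each gene (y axis), with line 1 as blue circles and line 3 as orange squares. The left panel is BrafV600E in Base medium against empty vector, the right panel long against 2-month culture, and the grey band holds differences under 20 points, which are not listed. Notch1 lies wholly to the right on the left panel, Jag2 wholly to the left on the right panel, and Jag1 has no point.

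Among the receptors, Notch1 (chromosome 2, 26457902 to 26503822) gained at several tiles in both lines and at the same places. With BrafV600E it had 4 gained tiles in line 1 and 6 in line 3, and 0 lost tiles in either, in the authors' deposited tables. All 4 tiles of line 1 were listed again in line 3. In line 1 the tiles at chr2:26482601-26482800, chr2:26482801-26483000 and chr2:26493801-26494000 gained 95.2, 96 and 94.4 points in the authors' deposited table, with q-values of 6.32e-06, 6.34e-07 and 0.000107. A level can only lie between 0 and 100%, so these tiles were at most 4.76%, 4% and 5.56% methylated in the empty-vector library. In line 3 the same tiles gained 45.0, 55 and 61.5 points in the authors' deposited table, less at every tile than in line 1. They lie inside the gene, 21121, 20921 and 9921 bases downstream of the start site by their middle.

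The fourth shared tile of Notch1 spans the start of the gene (chr2:26503801-26504000), in the first sequence shown above. It gained 54.1 points in line 1 and 27.7 points in line 3 (q-values 0.000308 and 0.0023, authors' deposited tables). The lncRNA gene Gm35978 also overlaps this tile, and the change cannot be assigned to either gene. Line 3 had a further pair of gained tiles near the 3′ end of Notch1, at chr2:26460001-26460400, with 93.6 and 72.3 points in the authors' deposited table. These lie within 2 kb of the lncRNA gene 0610009E02Rik. Gained Notch1 tiles averaged 84.9 points in line 1 and 59.2 in line 3 over the authors' deposited values, where the median of all gained tiles was 42.8 and 44.1 points.

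With long culture Notch1 showed no such pattern. Line 1 had 1 gained tile, the same chr2:26460001-26460200 that gained in line 3 with BrafV600E, at 43.5 points in the authors' deposited table. Line 3 had 1 lost tile inside the gene, chr2:26481601-26481800, at -54.9 points in the authors' deposited table. The tiles that gained with BrafV600E in both lines were not listed with long culture in either line.

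Notch2 (chromosome 3, 98013538 to 98150367) had a single tile listed with BrafV600E, in line 3, at 100 points in the authors' deposited table, which means 0% in the empty-vector library. With long culture the tile over its start, chr3:98013401-98013600, lost 46.9 points in line 3 (-46.9, q-value 2.98e-15, authors' deposited table). It was not listed in line 1. Line 1 lost 31.8 points at another tile, 10963 bases downstream of the start and near the lncRNA gene Gm40103 (-31.8 in the authors' deposited table). The loss counted in both lines for Notch2 therefore rests on different tiles, and line 3 also gained 23.6 points near the 3′ end in the authors' deposited table.

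Notch3 (chromosome 17, 32120820 to 32166896) changed around its start in both comparisons and in opposite directions. With BrafV600E, line 1 lost methylation at 3 tiles with their middle at 989, 189 and -11 bases from the start site (negative is upstream), with differences of -28.4, -22.2 and -38.8 points in the authors' deposited table. Line 3 lost at 2 tiles 1189 and 789 bases downstream, with -31.9 and -30.3 points in the authors' deposited table. The lines thus lost within the same 1500 bases but at no tile in common. With long culture, the tile over the start (chr17:32166801-32167000, the third sequence shown above) gained 47.7 points in line 1, and its neighbour 189 bases downstream gained 31.4 points, in the authors' deposited table. Line 3 gained 20.2 points at the tile 789 bases downstream in the authors' deposited table, just past the 20-point limit.

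So each of the 3 Notch3 tiles that gained with long culture had lost with BrafV600E in the same line. Further into the gene, gains were listed with BrafV600E and losses with long culture, but in different lines and at different tiles. Line 1 gained 57.1 and 23.4 points with BrafV600E at tiles 31389 and 25589 bases downstream in the authors' deposited table, and line 3 lost with long culture (-20.1 and -35.5 points in the authors' deposited table) at tiles 23389 and 19589 bases downstream. The tiles at 25589 and 23389 bases lie near the lncRNA gene Gm41568.

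Notch4 (chromosome 17, 34564286 to 34588543) differed between the lines. The tile 606 bases downstream of its start, chr17:34564801-34565000, gained 20.8 points with BrafV600E in line 1 at a q-value of 0.00998, next to both listing limits, and lost in line 3 (-41.4 points) in the authors' deposited tables. Line 3 lost at a further 2 tiles inside the gene, with -74.2 and -56.3 points in the authors' deposited table. With long culture 1 tile past the 3′ end gained 28.0 points in line 3 in the authors' deposited table. This tile overlaps the neighbouring gene Gpsm3 and cannot be assigned to Notch4.

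**Figure D3:**
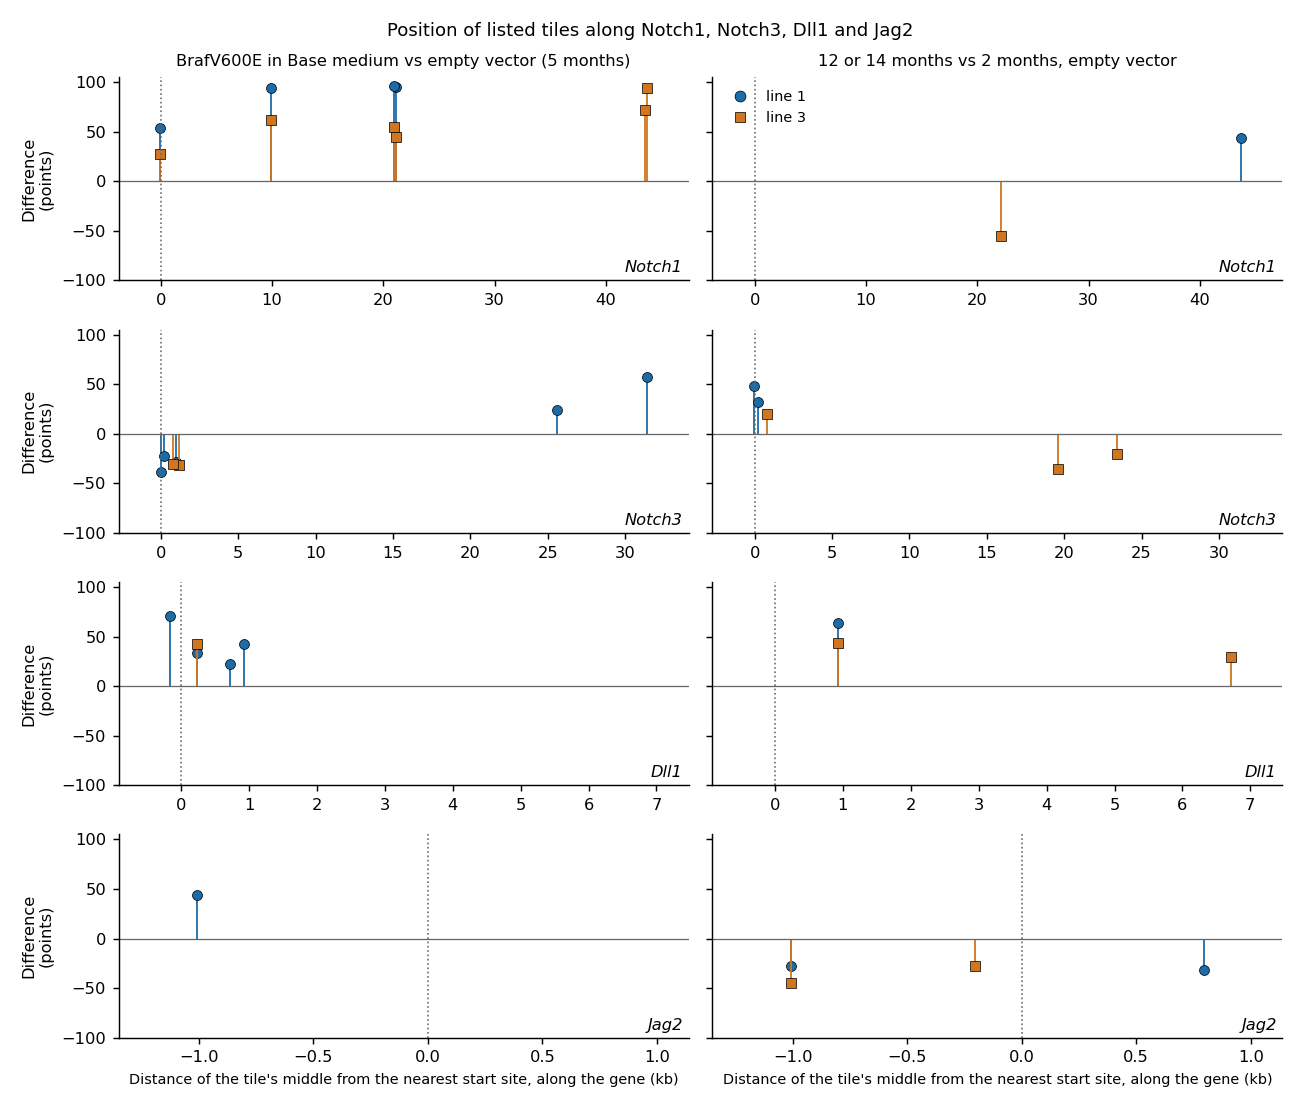
Methylation difference in percentage points (y axis) of listed tiles against the distance of the tile's middle from the nearest annotated start site along the gene, in kb (x axis, dotted line at the start), for Notch1, Notch3, Dll1 and Jag2 from top to bottom. Blue circles are line 1, orange squares line 3, left BrafV600E in Base medium, right long culture. The Notch3 tiles at the start point down on the left, to -38.8 points, and up on the right, to 47.7 points.

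Among the ligands, Dll1 (chromosome 17, 15367354 to 15376932) gained in both comparisons and in both lines and had 0 lost tiles within 2 kb in any table. With windows of 5 kb, line 3 had 4 gained and 1 lost tile with BrafV600E and 2 gained and 2 lost with long culture, and the means over its tiles moved from 42.1 to 22.9 and from 36.5 to 3.61 points. With BrafV600E, line 1 gained 70.6 points just upstream of the gene (chr17:15377001-15377200, the fourth sequence shown above) and 33.8 points at chr17:15376601-15376800 in the authors' deposited table. Line 3 gained 42.1 points at the latter tile in the authors' deposited table, with a q-value of 1.34e-23. Line 1 gained another 42.3 and 22.7 points at tiles 922 and 722 bases downstream of the second annotated start of Dll1 in the authors' deposited table. With long culture the first of these, chr17:15374801-15375000, gained 64.0 points in line 1 and 43.5 points in line 3 in the authors' deposited tables. Line 3 gained a further 29.4 points near the 3′ end in the authors' deposited table. Of the 5 distinct Dll1 tiles, 4 lie within 1500 bases of a start.

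Dll3 (chromosome 7, 28293555 to 28301785) encodes an atypical ligand that is held inside the cell and does not activate Notch in a neighbour. The tile chr7:28291401-28291600 gained 43.1 points in line 1 and 30.8 points in line 3 with BrafV600E, and lost in line 1 with long culture (-45.5 points), in the authors' deposited tables. This tile lies past the 3′ end, within 2 kb of the gene Selenov, so it cannot be assigned to Dll3. Near the start, line 1 gained 43.9 points at 284 bases downstream while line 3 lost at 1484 bases (-74.5 points) with BrafV600E in the authors' deposited tables. With long culture line 3 gained 35.4, 50.1 and 32.2 points at 3 tiles inside the gene and lost 22.5 points at 1 (-22.5) in the authors' deposited table. Dll3 thus gave no single direction in either comparison.

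Dll4 (chromosome 2, 119325784 to 119335666), the ligand best known from sprouting blood vessels, had tiles in line 3 with BrafV600E only. They lie upstream of the gene, at -1683 and -1083 bases from the start, with -31.6 and 25.1 points in the authors' deposited table. Both tiles also overlap the lncRNA gene Gm14207. Jag1 (chromosome 2, 137081451 to 137116520), a ligand with a role in bile duct and vessel development, had 0 listed tiles in the 8 tables. Its promoter holds CG 22 times and CCGG 6 times, so letters that such libraries sample are present, but whether the tiles were read is not known here.

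Jag2 (chromosome 12, 112907803 to 112929812) lost methylation with long culture at each of its listed tiles in both lines. The tile chr12:112930401-112930600, at -1006 bases from the annotated start, had -27.7 points in line 1 and -44.4 points in line 3 in the authors' deposited tables. Line 1 also lost at 794 bases downstream (-31.9 points), and line 3 at the tile over the promoter (-28.0 points, q-value 3.92e-22), in the authors' deposited tables. With BrafV600E, Jag2 had 1 listed tile, the same one at -1006 bases, which gained 44.2 points in line 1 in the authors' deposited table and was not listed in line 3.

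Hey1 (chromosome 3, 8663359 to 8667038), a basic helix-loop-helix repressor switched on by Notch, had no tile with BrafV600E. With long culture, line 3 lost methylation at chr3:8664601-8664800 (-29.4 points) and gained 49.6 points at chr3:8666601-8666800 in the authors' deposited table. The gained tile lies within 2 kb of the gene LOC115489673. No tile was listed in line 1.

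Across the 10 genes, 7 tiles were listed in both lines with BrafV600E and 6 of them had the same direction, the exception being that of Notch4. With long culture 2 tiles were listed in both lines, at Dll1 and Jag2, and both had the same direction. Over the whole genome 73.9% of 5934 such tiles agreed in direction with BrafV600E and 68.5% of 3220 with long culture. Within a line, 6 member tiles were listed in both comparisons, 5 in line 1 and 1 in line 3. Of these, 5 moved in opposite directions (3 at Notch3, 1 at Dll3, 1 at Jag2) and 1 moved the same way, at Dll1. Over the whole genome 51.1% of 2384 such tiles in line 1 and 48.1% of 6964 in line 3 were opposite. With so few member tiles these counts are a description. Neighbouring tiles of Notch1 and Notch3 are not independent, and Notch1 holds most of the tiles that agreed between lines with BrafV600E.

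**Figure D4:**
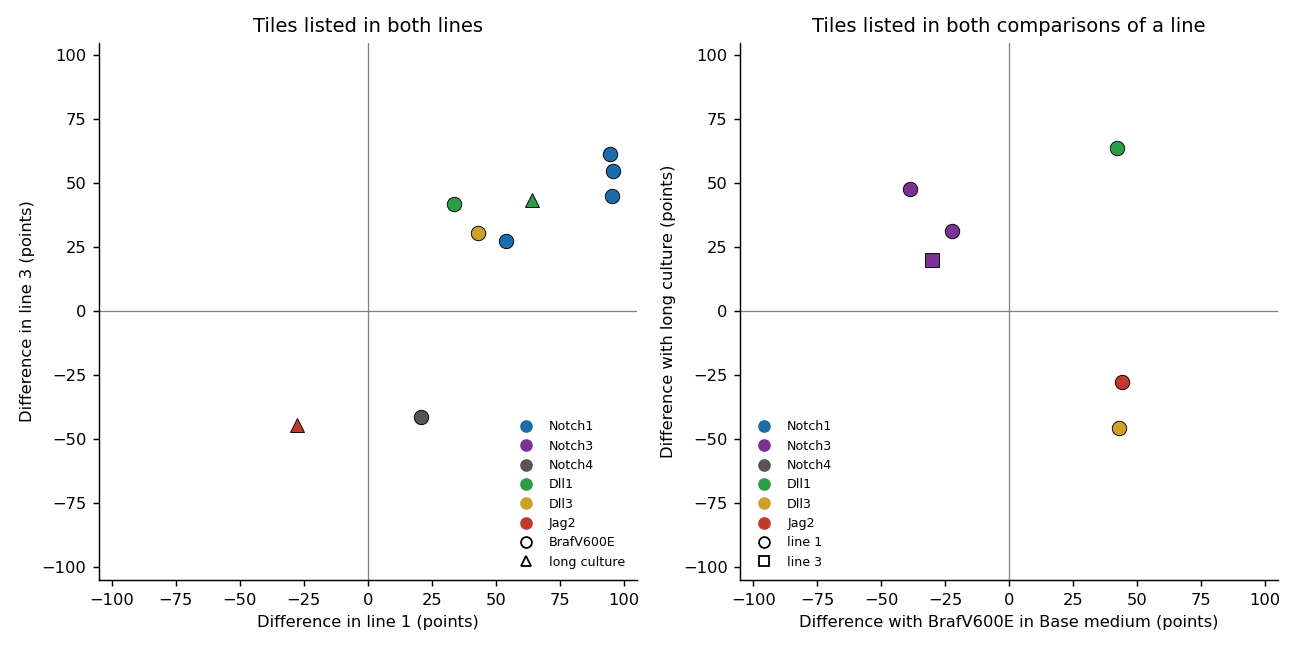
Left, difference in line 1 (x axis) against line 3 (y axis), in percentage points, for the 9 member tiles listed in both lines, with circles for BrafV600E and triangles for long culture. Right, difference with BrafV600E (x axis) against long culture (y axis) for the 6 tiles listed in both comparisons of a line, circles for line 1 and squares for line 3, coloured by gene. On the left only Notch4 falls in a quadrant of opposite signs, and on the right only Dll1 falls in the quadrant of equal signs.

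Position did not follow direction in a simple way. Of 41 distinct tiles at the 9 genes with an annotated start site, 19 had their middle within 1500 bases of one. With BrafV600E 11 listings in that range gained and 7 lost, and with long culture 6 gained and 5 lost. Of the 43 tiles, 34 lay inside a gene, 3 across a gene end and 6 outside, and 11 lay within 2 kb of another annotated gene.

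The genes whose 8 counts of gained and lost tiles came closest to those of Notch1 were the lncRNA gene 2210039B01Rik, Smad1, which encodes a BMP signal transducer, and the lncRNA gene 5730596B20Rik. The summed difference of the 8 counts was 2, 2 and 3 tiles, where Notch1 had 12 listings in all. Smad1 had 4 gained tiles in line 1 and 5 in line 3 with BrafV600E.

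The wider pathway was looked at in 57 other genes. They were ubiquitin ligases that act on ligands, glycosyltransferases, the receptor proteases, the nuclear complex, inhibitor or turnover genes, noncanonical ligands and targets. Of these, 35 had a listed tile in some table and 22 had none, beside the 44.9% of protein-coding genes with a tile given above. With BrafV600E, 14 of 57 (24.6%) had a gained tile in both lines and 7 (12.3%) a lost tile in both, against the 11.3% and 6.07% given above for protein-coding genes. With long culture the counts were 11 (19.3%) and 5 (8.77%), against 6.5% and 4.07%. Several genes counted in both directions, and the lists were described, not tested.

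Of 10 receptor protease genes, 3 had a tile and 7 had 0, among them Adam10, Adam17 and Ncstn, where 44.9% of protein-coding genes had one, so that a gene without a tile was common. Psen2, a catalytic subunit of γ-secretase, gained in both lines with long culture, by 25 points at its promoter, near the lncRNA gene Gm31728, in line 1 and by 100 points at another tile in line 3 (authors' deposited tables). In the nuclear complex Rbpj, the DNA-binding partner of Notch, had 0 tiles. Maml1, a Mastermind coactivator, gained at the same tile with BrafV600E in line 1 (29.0 points) and line 3 (58.8 points), per the authors' deposited tables.

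Of the enzymes that add sugars to Notch, Poglut1 also had tiles of opposite direction near its start in the comparisons. It lost methylation at 3 tiles within 355 bases of its start in line 1 and 1 in line 3 with BrafV600E, with means of -36.9 and -21.7 points over the authors' deposited values, and line 1 also gained 1 tile deep in the gene. With long culture it gained at 1 tile in line 1 and 3 in line 3, at means of 26.7 and 38.9 points over the authors' deposited values. Such opposite directions were common: over the whole genome 51.1% of tiles listed in both comparisons were opposite in line 1 and 48.1% in line 3. Lfng, which modulates ligand choice, gained 31.8 points with BrafV600E in line 1 and 47.4 points with long culture in line 3 at the same tile, -840 bases from its start, per the authors' deposited tables. Mib2, a ubiquitin ligase for ligands, had gained tiles in both lines with long culture. Per the authors' deposited tables, the tile shared by the lines rose by 23.1 points in line 1 and by 47.2 in line 3. Every listed Mib2 tile lies outside Mib2 and overlaps the gene Mmp23, so these changes cannot be assigned to Mib2.

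Of the inhibitor or turnover genes, Nrarp, Numb, Itch, Fbxw7 and Aak1 had 0 tiles. Dtx2, a Deltex ubiquitin ligase, lost at the same tile in both lines with long culture, with -63.0 and -53.5 points in the authors' deposited tables. Of the noncanonical ligands, Dlk1 gained with BrafV600E by 70.3 and 22.2 points at the tile shared by lines 1 and 3, and Ccn3 by 34.8 and 42.3 points, in the authors' deposited tables. The same tiles also gained with long culture in line 3, by 32.3 points at Dlk1 and 33.2 points at Ccn3. Neither gene had a tile listed in line 1 with long culture. Dlk1 is an imprinted gene as well.

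The targets varied. Hes1, the main Hes repressor of crypts, had 0 tiles, as did Olfm4 and Myc. Atoh1, the secretory fate gene that Hes1 represses, gained with BrafV600E at 3 tiles listed in both lines. They lie within 2 kb of the lncRNA gene Gm35851. Of them, chr6:64727601-64727800 lies outside Atoh1 and overlaps Gm35851, so it cannot be assigned to Atoh1. The means with this tile included were 46.3 points in line 1 and 46.5 points in line 3 over the authors' deposited values. Among these tiles, chr6:64730201-64730400 also gained 33.1 points with long culture in line 3. Hes5 gained with BrafV600E at tiles near its start that differed between lines, by 33.2 points in line 1 and by 22.1 and 20.4 points in line 3 in the authors' deposited tables. With long culture Hes5 gained 25.7 and 46.7 points at tiles in line 1 and had no listed tile in line 3. Hes2 and Hes3 gained in both lines with long culture, Hes2 at 3 tiles in line 1 and 2 in line 3, and Hes3 at 3 and 4. Some of the Hes3 tiles lie near Gpr153 or overlap it. The Hes2 tile chr4:152160001-152160200 gained 53.5 points in line 1 and 56.8 in line 3 per the authors' deposited tables, and it lost in line 3 with BrafV600E (-33.3 points in the authors' deposited table).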

How the data were processed

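Per the submitters' processing notes, Bismark 0.14.3 and methylKit 1.7.4 were used on GRCm38, with Trim Galore 0.4.4 and, as a quality check, FastQC 0.11.7. The coverage minimum and the enzyme are not stated in the labels used. The authors deposited 8 tables, gained and lost tiles for each of 4 within-line comparisons of 1 library with 1 library. Their columns, per the file headers, are the 200 bp tile, its signed methylation difference in percentage points (first library minus control), and p-value and q-value. Only tiles of at least 20 points and q of at most 0.01 are listed, so unlisted tiles have no value and depth is unknown.

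Tiles were assigned to a gene if they overlapped its RefSeq span or 2 kb either side, with Python 3.11.15 and pandas 2.3.3. The counting was tested on simulated data. Distances run from RefSeq start sites in the promoter table, which has 9 of the 10 genes, to the tile's middle. Exons and introns were not used here. No test was run: each group has 2 libraries, and counts stand beside those of 21887 protein-coding genes. Members and lists were chosen with earlier results of these data known. All 10 members are named, as are pathway genes with tiles of a single direction in lines 1 and 3, and Hes1, Rbpj, Atoh1, Nrarp and Lfng. Alternatives were 40 points, q under 0.001, other windows, at least 2 tiles, leaving out tiles near other genes, and leaving out a line.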

Additional observations from a re-analysis of the deposited data

Results flagged for a closer look

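The lines had listed tiles of opposite direction only, with none of a shared direction, at Notch4 with BrafV600E and at Notch1 with long culture. Those of Notch1 were different tiles. Dll3 and Notch3 in both comparisons, and Notch2 with long culture, had tiles of opposite direction between lines beside tiles of a shared direction. The difference between lines was not tested, since each table compares 1 library with 1 library. With BrafV600E in Base medium the Notch4 tile 606 bases downstream of the start gained 20.8 points in line 1 and had -41.4 points in line 3, and the mean over all listed Notch4 tiles was 20.8 points in line 1 (1 tile) and -57.3 points in line 3 (3 tiles). With long culture Notch1 had 43.5 points in line 1 and -54.9 points in line 3, at 1 tile each, which lie 43721 and 22121 bases downstream of the start.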

How the results depend on the processing

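No paired analysis was possible because the result comes from no test, and each deposited table already compares libraries of 1 line. Counts over 10 genes are small, and many changed by more than 1.5 times. Members gained in both lines with BrafV600E fell from 3 to 1 with at least 2 tiles per line (Notch1 alone), and were 5 to 6 with a single line. With long culture the 2 gained members became 0 with at least 2 tiles, 1 at 40 points or within 1 kb of gene ends, and 3 to 6 with a single line. The 1 member lost in both lines with BrafV600E became 0 at 40 points and 1 to 4 with a single line. The 3 lost members with long culture became 0 at 40 points, 1 with at least 2 tiles, q under 0.001, gene ends or without tiles near another gene, and 3 to 6 with a single line. Tiles listed in both lines with BrafV600E went from 7 to 3 at 40 points or at gene ends and to 4 at q under 0.001. With long culture the 2 such tiles became 4 with 5 kb windows and 1 at 40 points, q under 0.001, gene span alone or gene ends. For the other pathway genes, the 14 gained with BrafV600E became 4 with at least 2 tiles, 5 at 40 points and 7 at gene ends, and the 11 gained with long culture 4, 7 and 6, then 7 without tiles near another gene and 12 to 20 with a single line. The 7 lost with BrafV600E became 0, 1 and 3 under those 3 settings, 4 at q under 0.001 and 13 to 14 with a single line, and the 5 lost with long culture 1, 3 and 1, then 3 and 10 to 11. Mean differences changed sign where tiles of both directions were mixed: Dll3 in line 3 with BrafV600E (6.99 points in 5 kb windows), Dll4 in line 3 (25.1 at gene ends), Hey1 in line 3 (-29.4 without tiles near another gene), Notch3 in line 1 with BrafV600E (57.1 at 40 points) and in line 3 with long culture (0.0459 at q under 0.001, 20.2 at gene ends). These changes follow from the tiles each setting leaves. Depth is unknown and limits every value.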

Other observations

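Of 5 genes of the Deltex family of ubiquitin ligases, Dtx1 and Dtx3 carried several listed tiles in line 3, and they were chosen after their values were seen. Dtx2, Dtx3l and Dtx4 had 1 tile each in line 3, lost with long culture (-53.5, -52.9 and -40.6 points). The line 3 tables lean the same way as Dtx1 and Dtx3 over the whole genome, with 40.4% of listed tiles gained with BrafV600E and 71.9% with long culture, against 67.5% and 40.9% in line 1. Dtx1 (chromosome 5, 120680203 to 120711867) lost at 8 tiles and gained at 1 with BrafV600E in line 3, and gained at 12 and lost at 1 with long culture. The means were -36.4 points over the 8 lost and 36.0 points over the 12 gained tiles. In line 1 the counts with BrafV600E were 4 gained and 1 lost, so the majority direction at Dtx1 was not shared by the lines. Dtx3 (chromosome 10, 127190373 to 127196498) lost at 4 tiles and gained at 1 with BrafV600E in line 3, and gained at 5 with long culture. The means were -30.8 points over the 4 lost and 30.7 points over the 5 gained tiles. Most of these lost and long-culture tiles lie outside Dtx3 and overlap the gene Arhgef25. The others overlap F420014N23Rik, so the changes cannot be assigned to Dtx3. In line 1 Dtx3 had 1 lost tile with BrafV600E and 0 with long culture.

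Maml3, a Mastermind coactivator with a gene of 418 kb on chromosome 3, gained at 6 tiles in line 1 and 8 in line 3 with BrafV600E, at means of 68.7 and 61.3 points, with 1 lost tile in each line. Only chr3:52007601-52007800 and chr3:52062601-52062800 gained in both lines. With long culture it gained at 1 tile and lost at 2 in line 1, and gained at 2 and lost at 2 in line 3. So long a gene has more room for tiles than most. Maml3 too was chosen after its values were seen.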
